A study of Mus musculus with 8 samples.

Results

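miR-122 is the microRNA (miRNA) for which hepatocytes are best known, and its signal was followed here on every array of a comparison between livers of diabetic and control mice. It was chosen by the name mmu-miR-122 in the array files, which made it 1 of the 567 mouse miRNAs on the array and gave it 2 of the 1672 mouse miRNA probes. The diabetic livers came from 4 db/db mice and the control livers from 4 db/+ mice. Both groups are on the C57BL/KsJ background and carry the db allele of the leptin receptor gene Lepr, on both copies in db/db and on 1 in db/+, so the controls are heterozygotes and not wild type. The series text reports higher body weight and plasma glucose in the db/db animals, and the age of these animals is not given in the sources used here. The array holds probes for known miRNAs only, and whole liver was taken, so fewer cells of a type and less RNA per cell cannot be told apart.

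miR-122 is made from its own gene, which is transcribed in hepatocytes and in few other cells under liver transcription factors. Lowering it in mice reduces blood cholesterol and changes the genes of fatty acid and cholesterol synthesis, and mice without it develop fatty liver and later liver tumours. It is best known outside mice as a host factor that the human hepatitis C virus needs.

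The mature sequences of 6 other miRNAs that the results below set against miR-122 are shown, from RefSeq with assembly GRCm38.p6, 5′ to 3′, with the seed, bases 2 to 8, in capitals. The first 3 belong to the miRNAs whose scaled level moved most like that of miR-122. miR-30a and miR-26a are abundant liver miRNAs, of which the first moved with it and the second against it on the scaled level only. miR-21 had the next highest mean log2 signal over the 8 arrays.
miR-139-5p: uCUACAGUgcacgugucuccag
miR-24: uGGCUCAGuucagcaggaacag
miR-92a: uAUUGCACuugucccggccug
miR-30a: uGUAAACAuccucgacuggaag
miR-26a: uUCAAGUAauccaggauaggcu
miR-21: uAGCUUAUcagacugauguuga
The 6 seeds all differ, so the 6 miRNAs printed here belong to no single seed family.

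Each array was read as 1 liver, with 100 ng of total RNA labelled with Cy3. The title of db/+ replicate 1 says livers, in the plural, where all other titles say liver. Between 133 and 166 mouse miRNAs were detected on the db/db arrays and between 91 and 255 on the db/+ arrays, and 303 of the 567 on no array. Signal was scaled between arrays by a factor, called brightness here, which compares the median signal of the 89 miRNAs detected on every array with its geometric mean over the 8 arrays. Brightness was 0.847, 1.06, 0.993 and 1.06 on the db/db arrays and 5.63, 0.564, 1.58 and 0.210 on the db/+ arrays, a range of 1.26-fold in db/db and 26.8-fold in db/+. Replicates 1 and 4 of db/+ are the brightest and the dimmest array of the study. The arrays shared 1 slide, on which row 1 held every db/db sample and row 2 every db/+ sample, and row and strain therefore cannot be told apart.

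miR-122 gave the brightest signal of all mouse miRNAs on each of the 8 arrays. It was flagged as detected, and well above background, on all of them, and none of its spots was saturated. This is a rank of signal and not of molecules, since the brightness of a probe also depends on the probe. The summed mouse miRNA signal of an array was used to express its share, which needs no scaling between arrays.

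Before scaling, the signal of miR-122 was 38949, 47529, 47695 and 46464 on db/db arrays 1 to 4, and 136744, 36768, 52291 and 13157 on db/+ arrays 1 to 4. The db/db arrays lay close together, with a 1.22-fold range, inside a 10.4-fold range of the db/+ arrays, so the strains overlapped completely. On the log2 scale the unscaled level was 15.46 ± 0.14 in db/db and 15.40 ± 1.39 in db/+ (SD, n = 4 each), a difference of 0.06 (two-sided exact permutation p = 0.886). A 4 against 4 comparison cannot give an exact p below 0.0286.

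After scaling, the log2 level of miR-122 was 15.49, 15.45, 15.55 and 15.42 on db/db arrays 1 to 4, and 14.57, 15.99, 15.02 and 15.93 on db/+ arrays 1 to 4. The db/db values again sat between the db/+ values: db/+ arrays 1 and 3 were lower than every db/db array and db/+ arrays 2 and 4 were higher. The means were 15.48 ± 0.06 in db/db and 15.38 ± 0.70 in db/+ (SD, n = 4 each), and the log2 fold change, db/db over db/+, was 0.10 ± 0.30 (SE; limma adjusted p = 0.874 over 127 miRNAs). miR-122 did not pass the threshold of 0.05. The 95% interval of that log2 fold change ran from -0.57 to 0.77, which is 0.673-fold to 1.70-fold; the interval includes 0. Over the 127 miRNAs of the same fit 15.0% passed, 12 higher and 7 lower in db/db, and the median log2 fold change was 0.15. When only the 89 miRNAs detected on all 8 arrays were fitted, 14 passed, 8 higher and 6 lower. With scaling to the 75th percentile the median over all 127 was 0.02 and the log2 fold change of miR-122 was -0.028. The sign of the difference rested on single db/+ arrays: it was -0.17 without db/+ replicate 1 and -0.021 without db/+ replicate 3, and in neither case did it pass.

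**Figure D1:**
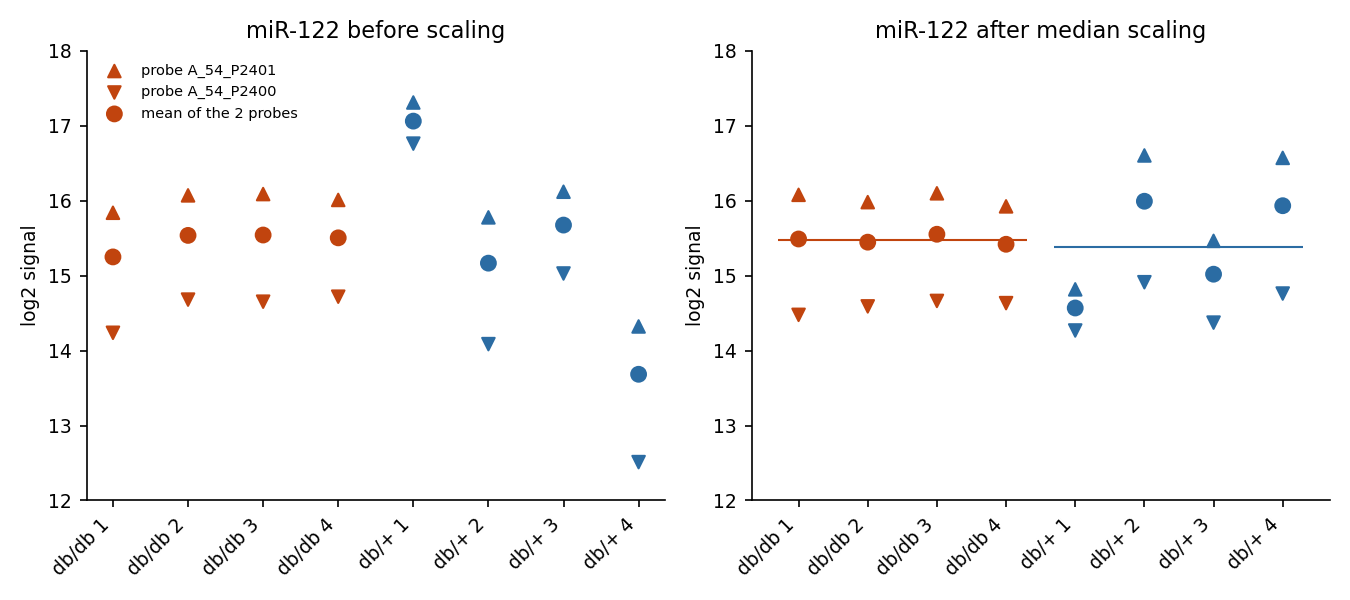
Log2 signal of miR-122 before scaling (left) and after median scaling (right) on each array, db/db in orange and db/+ in blue, with triangles for the 2 probes and circles for the mean of their linear signals; horizontal lines are the strain means of the circles. After scaling the db/db circles lie between 15.42 and 15.55 and the db/+ circles between 14.57 and 15.99.

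The authors' deposited scores, which the series text calls global median normalized and log transformed with no base named, also placed miR-122 at the top of the 139 miRNAs scored on each array. Its scores were 3.60, 3.62, 3.61 and 3.54 on the db/db arrays and 3.46, 3.66, 3.55 and 3.51 on the db/+ arrays. As in the scaled log2 level, db/+ replicate 1 was lowest and db/+ replicate 2 highest, but the score of db/+ replicate 4 was below those of all 4 db/db arrays. The mean score differed by 0.0475 (two-sided exact permutation p = 0.371).

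**Figure D2:**
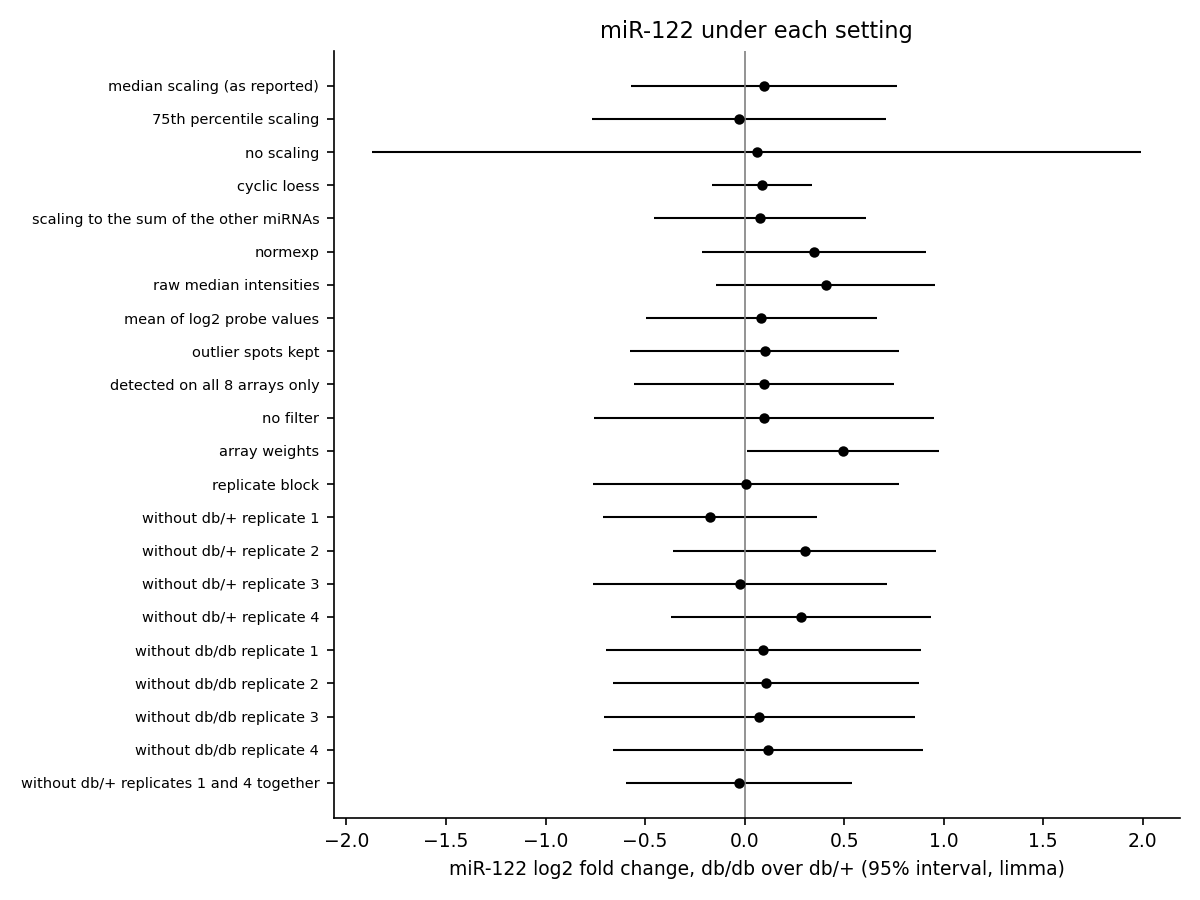
Log2 fold change of miR-122, db/db over db/+, with its 95% interval from limma (horizontal axis), under each setting run on the array signal (vertical axis). All intervals but that with array weights, 0.01 to 0.98, include 0, and no adjusted p was under 0.105.

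miR-122 held 36.2, 35.9, 36.8 and 34.8% of the summed mouse miRNA signal on db/db arrays 1 to 4, and 25.2, 39.7, 32.1 and 43.1% on db/+ arrays 1 to 4. About the same share was thus seen on every db/db array, while db/+ arrays lay both above and below them. The mean was 35.9 ± 0.832% in db/db and 35.0 ± 8.02% in db/+ (SD, n = 4 each), a difference of 0.913 percentage points (two-sided exact permutation p = 0.886). Leaving out one db/+ array at a time gave -2.37 (replicate 1), 2.47 (replicate 2), -0.067 (replicate 3) and 3.61 (replicate 4). The shares rest on the background subtraction: from the raw median intensities they were 24.9 ± 1.17% in db/db and 20.3 ± 5.83% in db/+. After normexp, another background correction, they were 27.3 ± 0.986% in db/db and 21.5 ± 5.69% in db/+ (SD, n = 4 each). Normexp was run with an offset of 50 added to every spot, so its shares are not those of background-subtracted signal alone. The lowest share after normexp was 14.9%, on db/+ replicate 3, whose brightness was 1.58. The part of the offset in these shares was not tested. The strain difference passed under neither, with exact permutation p of 0.0857 and 0.114.

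The miRNA with the next brightest signal was miR-720 on db/db arrays 1 and 3, and miR-21 on db/db arrays 2 and 4 and on all 4 db/+ arrays. miR-720 was later reclassified as a fragment of a transfer RNA, and miR-21 is a miRNA of most cell types that rises in injury and growth. miR-122 was 4.24, 5.71, 5.18 and 5.72 times as bright as that second miRNA on db/db arrays 1 to 4, and 1.89, 3.80, 2.93 and 4.63 times on db/+ arrays 1 to 4. Only db/+ replicate 4 reached into the db/db range. The log2 gap was 2.37 ± 0.20 in db/db and 1.65 ± 0.56 in db/+ (SD, n = 4 each), a difference of 0.72 that did not pass (two-sided exact permutation p = 0.0571).

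**Figure D3:**
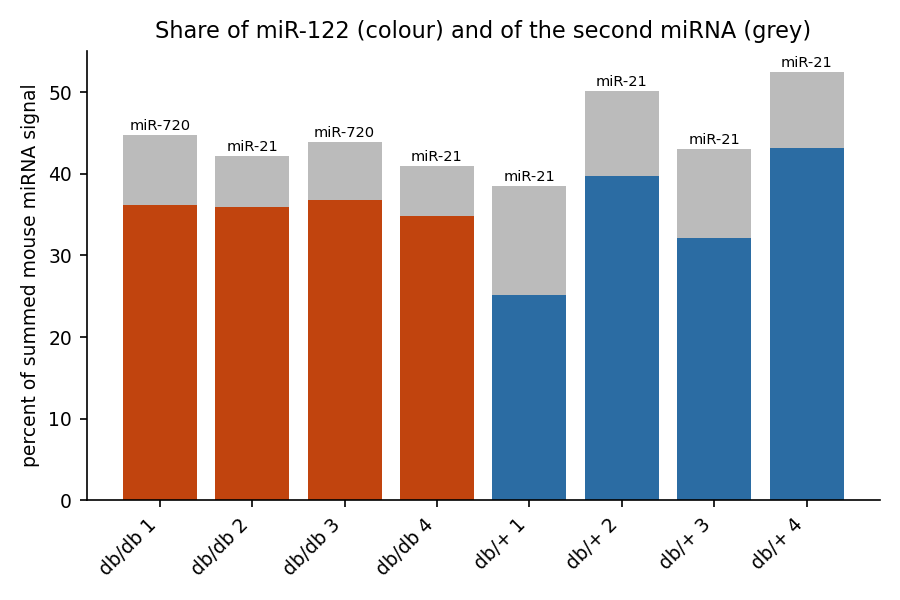
Percent of the summed mouse miRNA signal of each array (vertical axis) held by miR-122, in orange for db/db and blue for db/+, with the second brightest miRNA stacked in grey and named. miR-122 holds 34.8 to 36.8% on the db/db arrays and 25.2 to 43.1% on the db/+ arrays.

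Set against each of the 9 next brightest miRNAs within an array, miR-122 differed most between the strains against miR-21. Its signal was 5.31 to 6.40 times that of miR-21 in db/db and 1.89 to 4.63 times in db/+, with no overlap (two-sided exact permutation p = 0.0286, the smallest possible, adjusted p = 0.129 over the 9 ratios). miR-21 itself fell, with a log2 fold change of -0.78 (limma adjusted p = 0.00846). In limma without scaling, after normexp and with raw medians, 0 miRNAs passed as lower in db/db, so miR-21 did not pass there. Against miR-29a, which lowers collagen messages, the signal of miR-122 was 12.2 to 16.4 times as high in db/db and 6.56 to 12.1 times in db/+, again with p = 0.0286 and adjusted p = 0.129 (exact permutation test). For the other 7, miR-720, miR-192, miR-22, let-7a, let-7f, let-7b and let-7g, the unadjusted exact permutation p of the ratio lay between 0.114 and 1. Together miR-122 and these 9 held 69.4 to 72.4% of the signal in db/db and 64.9 to 77.2% in db/+.

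The 2 probes of miR-122 are each printed as 10 spots per array. The array files place their target on mouse chromosome 18 in build mm9, at chr18:65408523-65408541 for A_54_P2400 and at chr18:65408522-65408541 for A_54_P2401, 19 and 20 positions long. RefSeq's annotation of GRCm38.p6, from which only names were taken, has Mir122b at the same place as Mir122 and no other overlapping gene, with Nedd4l and Alpk2 on either side. The target thus lies in a miRNA gene and in no exon, intron or UTR of a protein-coding gene in that annotation. Probe A_54_P2401 read 58586, 68814, 69644 and 65967 on db/db arrays 1 to 4, and 162430.2, 56146, 71164 and 20474 on db/+ arrays 1 to 4. Probe A_54_P2400 read 19311, 26245, 25746 and 26962 on db/db arrays 1 to 4, and 111057, 17389, 33419 and 5840.1 on db/+ arrays 1 to 4. The longer probe was brighter on every array, but not by a constant factor. Their ratio, A_54_P2401 over A_54_P2400, was 3.03, 2.62, 2.70 and 2.45 in db/db and 1.46, 3.23, 2.13 and 3.51 in db/+. The lowest and the highest ratio both came from db/+ arrays, those with the most and the least signal. By strain the ratio was 2.70 ± 0.246 in db/db and 2.58 ± 0.954 in db/+ (SD, n = 4 each; two-sided exact permutation p = 0.83). Within an array, the spots of a probe had a coefficient of variation of 1.05 to 9.95%.

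Tested one at a time on the scaled log2 scale, neither probe separated the strains. Probe A_54_P2401 was at 16.02 ± 0.08 in db/db and 15.86 ± 0.88 in db/+, a difference of 0.16 (two-sided exact permutation p = 0.771, adjusted p = 0.943 over 2 probes). Probe A_54_P2400 was at 14.59 ± 0.08 in db/db and 14.58 ± 0.31 in db/+, a difference of 0.01 (two-sided exact permutation p = 0.943, adjusted p = 0.943; SD, n = 4 each). Both probes were steadier in the db/db arrays, and the spread in db/+ was wider for the brighter probe.

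The share of miR-122 was lower on brighter arrays. Over the 8 arrays its share and the log2 brightness had a Pearson r of -0.985 and a Spearman rho of -0.952 (exact permutation p = 0.000298 and 0.00114, the same after adjustment over 2 relations). Share and brightness are computed from the same signals of an array, while the permutation test treats them as independent. Without db/+ arrays 1 and 4, the farthest from the median brightness, r was -0.963 over 6 arrays. The relations of share and of probe ratio with brightness, and 2 other background treatments, were chosen after the data were seen. Under those treatments the relation of share and brightness did not pass over the 8 arrays. With the raw median intensities r was 0.56 (exact permutation p = 0.224), and 0.165 without db/+ arrays 1 and 4. After normexp r was -0.01 (exact permutation p = 0.932), and -0.742 without those arrays. The ratio of the 2 probes followed brightness under each of the 3, with r = -0.961 and rho = -0.976 for the processed signal (exact permutation p = 9.92e-05 and 0.000397, adjusted p = 0.000198 and 0.000794), r = -0.964 for the raw medians and r = -0.959 after normexp. Without db/+ arrays 1 and 4 the ratio had r = -0.958. Within a strain there were 4 arrays, too few for a correlation.

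**Figure D4:**
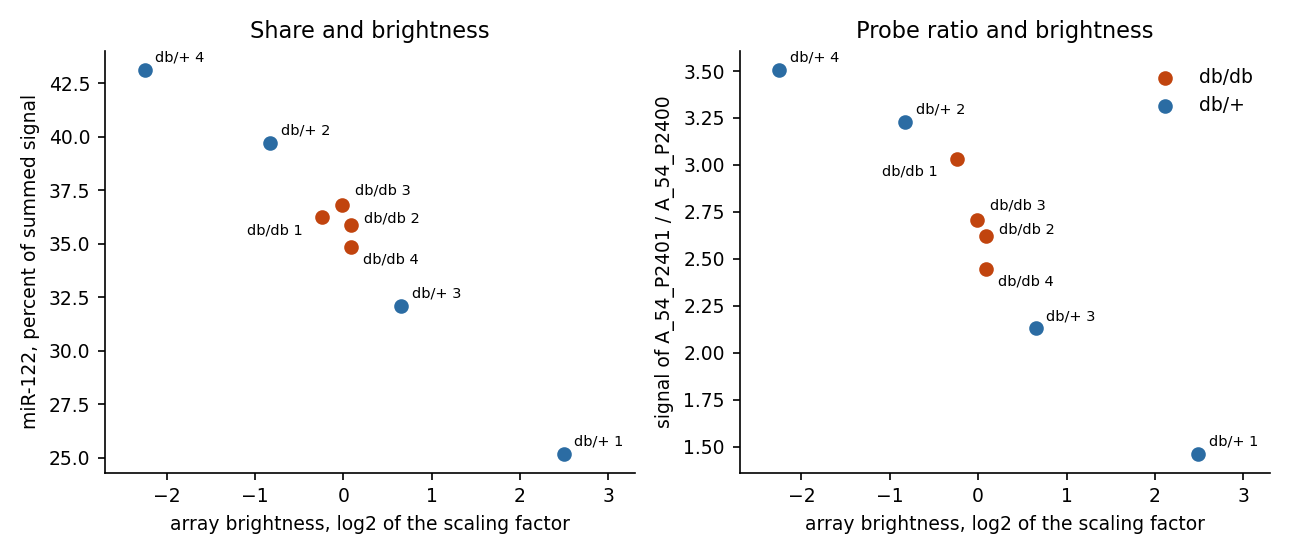
Share of miR-122 in percent of the summed signal (left) and ratio of its probes A_54_P2401 over A_54_P2400 (right) against array brightness, the log2 of the scaling factor; each point is 1 array, db/db in orange and db/+ in blue. The brightest array, db/+ 1, has the lowest share, 25.2%, and the lowest ratio, 1.46, and the dimmest, db/+ 4, has the highest of both, 43.1% and 3.51.

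From the dimmest to the brightest array, both db/+, the signal of miR-122 grew less than that of nearly all other miRNAs. db/+ replicate 1 over db/+ replicate 4 gave 10.4-fold for miR-122, against a median of 21.5-fold over the 89 used for scaling, and 1 of the 89 had a smaller fold. By probe it was 7.93-fold for the brighter A_54_P2401 and 19.0-fold for A_54_P2400. Of the 80 other miRNAs with a pair of probes above 0 on both arrays, 67 had a smaller ratio of brighter to dimmer probe on the bright array. The median change of that ratio was 0.780-fold, and that of miR-122 was 0.417-fold.

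The scanner read each slide at settings of 100 and 5%, and the brightest spots take their value from the weaker scan, scaled up. Of the 20 spots of miR-122, such values made up 13, 20, 20 and 20 on db/db arrays 1 to 4, and 20, 10, 20 and 9 on db/+ arrays 1 to 4. On db/+ arrays 2 and 4 these were spots of the brighter probe alone, and none of the 10 spots of A_54_P2400 was among them. All mouse miRNA spots read this way belonged to miR-122 on 6 of the 8 arrays, the exceptions being db/+ replicate 1, with 110 such spots, and db/+ replicate 3, with 36. The part of scan setting and brightness in the level, share and probe ratio of miR-122 was not tested.

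The liver label could be checked against marker miRNAs, drawn up with earlier results of these data known. Of 12 miRNAs abundant in hepatocytes all were tested, 0 rose and 1 fell, miR-21, where 9.45% of all 127 rose and 5.51% fell. They had a median log2 fold change of 0.06 against 0.15 over all 127. Their summed share, which includes that of miR-122 itself and of miR-21, was 58.3 to 60.5% in db/db and 56.4 to 66.6% in db/+. For the 4 hepatocyte markers miR-122, miR-192, miR-194 and miR-802 it was 40.7 to 42.3% in db/db and 31.1 to 48.4% in db/+. Among the 12, miR-192 and miR-194, which are made from shared transcripts and mark liver, gut and kidney epithelium, had log2 fold changes of 0.15 ± 0.16 and 0.22 ± 0.13 (SE; limma adjusted p = 0.56 and 0.304). For miR-802, known in mouse liver for raising glucose output in obesity, it was 0.52 ± 0.33 (SE; limma adjusted p = 0.321). miR-148a, a liver miRNA of lipid metabolism, was at -0.02 ± 0.14, miR-22 at 0.42 ± 0.23 and miR-101a at -0.55 ± 0.23 (SE; limma adjusted p = 0.949, 0.265 and 0.16).

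Of the miRNAs of other cell types, those of muscle, 4 of 4, were detected on no array, and 1 of 4 neural miRNAs was detected on any. For the 2 islet miRNAs, miR-375 was detected on no array and miR-7a on 7. The 5 leukocyte miRNAs held 0.161 to 0.225% of the signal in db/db and 0.262 to 0.409% in db/+, and both that could be tested, of 5, fell, where 5.51% of all 127 did: miR-142-3p with a log2 fold change of -1.10 and miR-223 with -0.74 (limma adjusted p = 0.0164 and 0.0434), named after their values were seen. Neither miR-142-3p nor miR-223 passed in limma without scaling, after normexp or with raw medians. The 2 endothelial miRNAs held 1.32 to 1.66% in db/db and 1.32 to 1.63% in db/+, and neither passed the test. Of the bile duct miRNAs 2 of 5 were tested and miR-200b, also named after its values were seen, rose (log2 fold change 0.81, limma adjusted p = 0.00788). Both tested were detected on 7 arrays, so they entered the test by detection in 1 strain only. In limma without scaling 0 miRNAs passed, so miR-200b did not pass there. The untested miR-200c had mean scaled log2 levels of 2.37 in db/db and 2.57 in db/+, and miR-141 of 2.32 and 2.54. These lie near the floor, and for the untested miR-429 the means were 4.02 and 3.77. None of the 5 erythroid, stellate, smooth muscle and islet miRNAs that could be tested passed. The part of these cell types in the level of miR-122 was not tested.

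Over the 8 arrays, the scaled log2 level of 62 of the 88 other miRNAs detected on all of them correlated above 0 with that of miR-122, with a median r of 0.39. The 5 with the highest r were miR-30d (0.957), miR-139-5p (0.917), miR-24 (0.902), miR-92a (0.898) and miR-720 (0.880), given as a description with no p. miR-30d was at 7.68, 7.57, 7.71 and 7.68 in db/db and at 7.04, 8.10, 7.50 and 8.27 in db/+ on the scaled log2 scale. Like miR-122, it was level across the db/db arrays, low on db/+ arrays 1 and 3 and high on db/+ arrays 2 and 4, so the likeness rests on the db/+ arrays. Without the 2 arrays farthest from the median of miR-122, db/+ 1 and 2, the 5 values of r were 0.889, 0.830, 0.913, 0.867 and 0.589. None of the 5 passed the strain test, with log2 fold changes from -0.15 to 0.25.

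These arrays share a slide and a scaling. A scaled level is a signal divided by brightness, so it and brightness are not independent. The scaled level of miR-122 itself had r = -0.93 with log2 brightness. For miR-30d that value was -0.972 and for miR-24 it was -0.890, so the likeness and the brightness of the arrays cannot be told apart. Before scaling, the r with miR-122 ran from 0.637 to 0.997 over all 88, with a median of 0.976, and 0 of the 5 highest were the same miRNAs.

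miR-26a, an abundant liver miRNA that in mice improves insulin sensitivity, moved against miR-122, with r = -0.844, and -0.884 without db/+ arrays 1 and 2. It was at 9.88, 9.93, 9.80 and 10.00 in db/db and at 10.01, 9.77, 10.01 and 9.71 in db/+ on the scaled log2 scale. Its db/+ arrays were low where those of miR-122 were high, over a much smaller range. Before scaling its r with miR-122 was 0.979, and its scaled level had r = 0.817 with log2 brightness. The opposite course of miR-26a and the brightness of the arrays therefore cannot be told apart. The miR-30 family fell on both sides: miR-30a had r = 0.871, and miR-30b, named here after its values were seen, had r = -0.723. miR-30b and miR-30d lie 3788 bases apart on chromosome 15 in mm9, at positions 68169031 and 68172819, and their scaled levels over these arrays went opposite ways against miR-122. miR-30b had r = 0.797 with brightness, against -0.972 for miR-30d.

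**Figure D5:**
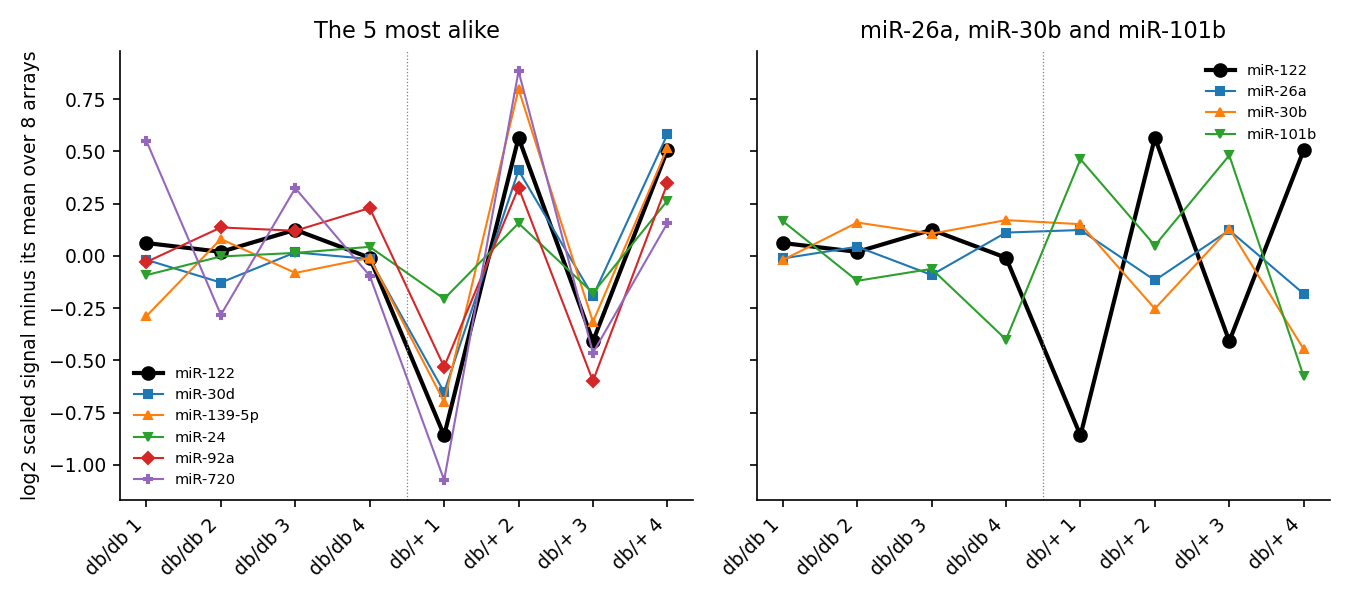
Scaled log2 signal minus its mean over the 8 arrays (vertical axis) by array, with miR-122 in black, the 5 miRNAs of highest r with it (left), and miR-26a, miR-30b and miR-101b (right); the dotted line parts db/db from db/+. The 5 on the left are low with miR-122 on db/+ 1 and 3 and high on db/+ 2 and 4, and miR-26a, with r = -0.844, and miR-30b, with r = -0.723, are the other way round there.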

How the data were processed

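Spot intensity came from the deposited scanner files, which per the file headers were made with Feature Extraction 9.5.3.1 by Agilent, although the series text names 9.3.5. The processed intensity was background-subtracted, not scaled between arrays. The deposited table of raw median intensity equalled the scanner medians in all 12493 rows per array. The authors deposited a score per miRNA for 139 miRNAs, whose log base is not given in the sources used here. Detection, saturation and outlier flags, of another kind, are 0 or 1, per the file headers.

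Spots flagged as outliers were left out. Spots were averaged per probe and probes per miRNA on the linear scale. Arrays were scaled by the median of the 89 miRNAs detected on all 8, floored at 4.59 and taken to log2. The 127 miRNAs with a detection flag on each of the 4 arrays of either strain entered a fit in limma 3.58.1 (R 4.3.3), with Benjamini-Hochberg adjustment (threshold 0.05). Single values were compared by exact permutation over arrays (scipy 1.17.1). The procedure was tested on simulated data. Replicates are separate animals, per the series text. Numbers 3 and 4 of db/+ come from titles; its other numbers only name arrays.

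Named were miR-122, the 9 brightest after it, the 5 most like it and any of 12 hepatocyte-abundant miRNAs. miR-122 and the lists were chosen with earlier results of these data known. Alternatives were other scalings, background corrections, filters, array weights, a replicate block and left-out arrays. Precision is limited by the number of arrays.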

Additional observations from a re-analysis of the deposited data

Results flagged for a closer look

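Among 20 groups of 4 array values checked for a value far from the others, 1 stood apart: the unscaled log2 level of miR-122 on db/db replicate 1, at 15.25, below 15.54, 15.54 and 15.50 on db/db replicates 2 to 4. Chance flags about 1 in 20 such groups. The brightness of that array was 0.847, the lowest of the db/db arrays, and its scaled level, 15.49, lay within those of the other db/db arrays.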

How the results depend on the processing

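miR-122 ranked first on all 8 arrays under the processed signal and the 5 alternatives tried, and its level passed the threshold under none of the settings run, with limma adjusted p of 0.105 to 0.993. Its log2 fold change was -0.028 with 75th percentile scaling and -0.029 without db/+ replicates 1 and 4 together, ran from -0.17 to 0.30 when single arrays were left out, and was 0.49 with array weights (unadjusted p = 0.0454), 0.35 after normexp and 0.41 with raw medians. Titles give the same number to arrays of both strains for 3 and 4 only, and the labels name no shared litter, batch or day. Deviations from the strain means correlated at 0.036 and 0.307 for the same number and at -0.212 and -0.207 across numbers, over 2 pairs, and the arrays are treated as sharing only a number. With the replicate block the log2 fold change was 0.01, the count of miRNAs past the threshold 8 and the share difference -1.78 percentage points (exact permutation p = 1, where the smallest possible is 0.5). The count, 19 as reported (12 higher, 7 lower), was 0 in limma without scaling (1 with unadjusted p under 0.05), 11 after quantile normalization, 2 after normexp, 1 with raw medians, 3 with the authors' scores, 4 without a filter and 42 with array weights, and ran from 10, without db/db replicate 2, to 21 when single arrays were left out (12 without db/db replicate 3). Its split of higher and lower was 6 and 8 with 75th percentile scaling, 11 and 11 with cyclic loess and 8 and 9 with scaling to the sum of the other miRNAs. With single arrays left out, the share difference ran from -2.37 to 3.61, the unscaled difference from -0.51 to 0.62, that of A_54_P2400 from -0.092 to 0.12 and that of A_54_P2401 from -0.19 to 0.40; A_54_P2400 differed by -0.025 without scaling. Share differed by 4.58 points with raw medians and 5.85 after normexp. The relation of share and brightness, itself chosen after the data were seen, had r = 0.56 with raw medians and -0.014 after normexp. The causes of these shifts were not tested. Quantile normalization gives the top miRNA the same level on every array by construction, and scaling to the median of all mouse miRNAs was not possible because not all medians were above 0, so neither gave a level. Signal over background limits the dim miRNAs, and the background treatment also moved the level and share of miR-122, as given above.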
